A study of Homo sapiens with 6 samples.

Results

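ICAM1 and 9 other genes for immune ligands carried by tumour cells were followed in PANC-1 cells after knockdown of CD73. The 10 genes were chosen by name, as ligands that leukocytes read on a tumour cell, and all 10 were found by Ensembl identifier among the 30735 genes of the data. PANC-1 is a long-established human line, derived from a ductal adenocarcinoma of the pancreas. The cells were transfected with CD73 siRNA (3 samples, numbered 1 to 3) or with a negative control (3 samples, numbered 1 to 3), both with a lipid reagent, and their total RNA was sequenced. The methods of the study name a single product for CD73 siRNA, so effects of that sequence other than on CD73 cannot be told apart from the loss of CD73. The study describes the samples as separate knockdown experiments, but the labels do not name separate cultures, so the p-values measure the spread between these samples. Only RNA was measured here, and less RNA per cell cannot be told apart from fewer cells that carry it.

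A tumour cell meets leukocytes through surface proteins that hold the cells together and through proteins that switch the leukocyte on or off. ICAM1 and CD58 are adhesion ligands, bound by the integrin LFA-1 and by CD2 on lymphocytes. PD-L1 (gene CD274), PD-L2 (PDCD1LG2), galectin-9 (LGALS9) and B7-H3 (CD276) belong to the checkpoint ligands, CD47 is the signal that restrains phagocytosis through SIRPA, and PVR and NECTIN2 are bound by the activating receptor CD226 and the inhibitory receptor TIGIT. CD83 is best known as a surface protein of mature dendritic cells. ICAM1 and PD-L1 are textbook targets of inflammatory cytokines, and TNF reaches ICAM1 through the transcription factor NF-κB.

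The promoters of these genes were searched for the letters NF-κB binds. ICAM1 and CD83 were the members whose 250 bases before a RefSeq transcription start held GGAANTTCC, a palindromic form of the NF-κB site. Each is shown within 30 bases on the forward strand of GRCh38.p14 (RefSeq), with the matching letters in capitals, because ICAM1 and CD83 had the largest differences described below.
ICAM1, NF-κB form, chr19:10270923-10270952: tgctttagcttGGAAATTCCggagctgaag
CD83, NF-κB form, chr6:14117711-14117740: ctggcgcgcagGGAAGTTCCcgaacgcgcg
The match in ICAM1 began 186 bases before the RefSeq start at 10271120. GENCODE 29 begins the gene at 10270835, so the match lay inside the gene as annotated there. In CD83 the match began 50 bases before the start at 14117772, and the window of the other CD83 start, at 14117256, held none. GENCODE 29 begins CD83 at 14117256, so this match too lay inside the annotated gene. The form reads the same on either strand. GGAANTTCC stood in the windows of 0.996% of 27305 genes. The looser consensus of 10 letters known as the NF-κB consensus stood in 11.8% of genes and, among the members, in CD276 and CD83, where some of its matches overlapped the stretch shown. Of the members, 9 had a window, PDCD1LG2 being the exception. The letters were searched after the sequence and the values of ICAM1 had been seen, and a match is a description of the sequence, not a site of binding.

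The data gave RPKM, that is reads scaled to gene length and to the library total, from library totals of 15009113 to 16836207. The target of the siRNA, NT5E (the gene of CD73), was at 3.36, 6.85 and 8.22 RPKM in CD73 siRNA samples 1, 2 and 3 and at 13.96, 13.87 and 17.14 RPKM in negative controls 1, 2 and 3, without overlap. The 12527 genes that reached 1 RPKM in 3 or more samples were compared on log2(RPKM + 1) with limma, and a gene is said to fall or rise below where its unadjusted p was under 0.01, the threshold the study used. At an adjusted p under 0.05 (limma, Benjamini-Hochberg) only 1 gene, or 0.00798% of those tested, passed, and it was none of the members. The exact permutation test of 3 samples against 3 cannot give less than 0.1.

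ICAM1 fell to 36.45% of its control mean, while the other expressed ligands stood at 56.6% to 93.1% of theirs. Of the 10 members, 7 passed the filter on low values (ICAM1, PVR, NECTIN2, CD276, CD47, CD83 and CD58), and CD274, LGALS9 and PDCD1LG2 did not. ICAM1 was the member of those 7 that fell, against 1.31% of all tested genes that fell and 3.13% that changed in either direction.

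**Figure D1:**
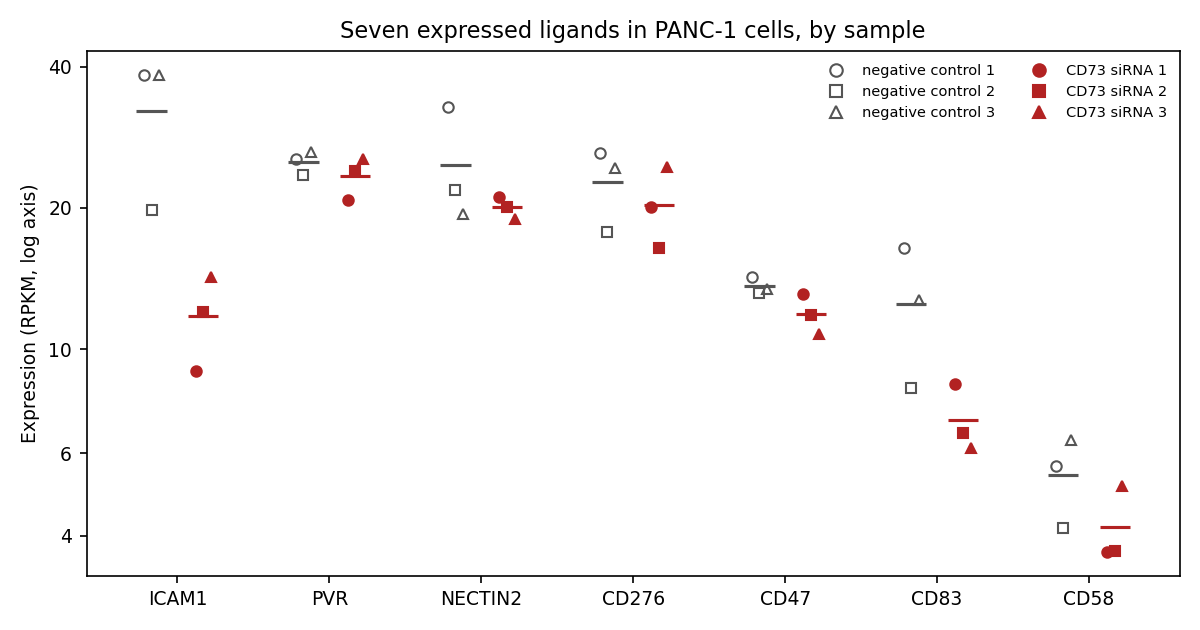
RPKM of the 7 ligands that passed the filter, on a log axis, with 1 point per sample (open grey, negative control; filled red, CD73 siRNA; marker shape, replicate number) and a bar at each group mean. ICAM1 stands at 19.8 to 38.5 RPKM in the controls and at 8.96 to 14.3 RPKM after CD73 siRNA, while the groups of PVR, NECTIN2, CD276, CD83 and CD58 overlap.

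ICAM1 (ENSG00000090339, chr19:10270835-10286615, forward strand, GENCODE 29 on GRCh38) encodes the ligand by which a tumour cell is held by LFA-1 and Mac-1 on lymphocytes and myeloid cells. It was at 8.96, 12.0 and 14.3 RPKM in CD73 siRNA samples 1, 2 and 3 and at 38.5, 19.8 and 38.5 RPKM in negative controls 1, 2 and 3. The groups did not overlap, and control 2 was the only control near the siRNA samples. Mean ICAM1 was 11.75 ± 2.67 RPKM after CD73 siRNA and 32.25 ± 10.8 RPKM in the controls (SD, n = 3 each).

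On the log2(RPKM + 1) scale ICAM1 changed by -1.34 (SE 0.267, 95% interval -1.96 to -0.73), a 2.54-fold decrease with an interval of 1.66 to 3.89. limma's p was 0.00102 and its adjusted p 0.303, and the exact two-sided permutation p was 0.1, the smallest possible. Within numbers 1, 2 and 3 the log2 difference was -1.99, -0.67 and -1.37, lower in 3 of 3 and smallest where the control was low. Between 534 and 2288 reads stood behind each value, so counting alone would give a coefficient of variation of 3.76% in the siRNA group and 2.32% in the controls, where the replicates had 22.7% and 33.5%. The genes annotated on the other strand within ICAM1, AC011511.2 and AC011511.5, reached at most 0.068 RPKM.

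CD58 (ENSG00000116815, chr1:116514535-116571039, reverse strand) encodes LFA-3, the CD2 ligand that strengthens contact with T cells and NK cells. It was at 3.70, 3.71 and 5.10 RPKM in CD73 siRNA samples 1 to 3 and at 5.63, 4.15 and 6.39 RPKM in controls 1 to 3. The groups overlapped, since siRNA sample 3 lay above control 2. The log2 difference was -0.30 (95% interval -0.69 to 0.09, limma p = 0.114, exact permutation p = 0.2), lower within each number (-0.50, -0.13 and -0.28). Only 104 to 171 reads stood behind each value.

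CD274, LGALS9 and PDCD1LG2, the genes of PD-L1, galectin-9 and PD-L2, were close to the limit of detection in all 6 samples. CD274 (ENSG00000120217, chr9:5450503-5470566, forward strand) had 2, 4 and 5 reads in CD73 siRNA samples 1 to 3 and 5, 10 and 4 reads in the controls, or 0.030, 0.062 and 0.072 RPKM against 0.076, 0.157 and 0.065 RPKM. The groups overlapped (exact permutation p = 0.2), and 3 reads correspond to 0.0434 to 0.0487 RPKM. LGALS9 (ENSG00000168961, chr17:27629798-27649560, forward strand) had 7, 3 and 3 reads against 9, 5 and 7.

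LGALS9 thus stood at 0.076, 0.033 and 0.031 RPKM after CD73 siRNA and at 0.098, 0.056 and 0.082 RPKM in the controls, with overlapping groups (exact permutation p = 0.2). Its near copy LGALS9C had 0.013 RPKM in siRNA sample 1 and 0 elsewhere, and reads of such copies may be split between them. A protein-coding gene on the same strand, AC015688.4, overlaps 10980 bases of LGALS9 and had no values in the data. Its part in the low values of LGALS9 was not tested. LGALS9B was not analysed here. PDCD1LG2 (ENSG00000197646, chr9:5510570-5571254, forward strand) had 1 read in siRNA sample 2 and 1 read in control 3 and was listed at 0 in the other 4 samples, where 3 reads would be 0.0753 to 0.0845 RPKM. A difference in these 3 genes was not detectable at this depth.

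**Figure D2:**
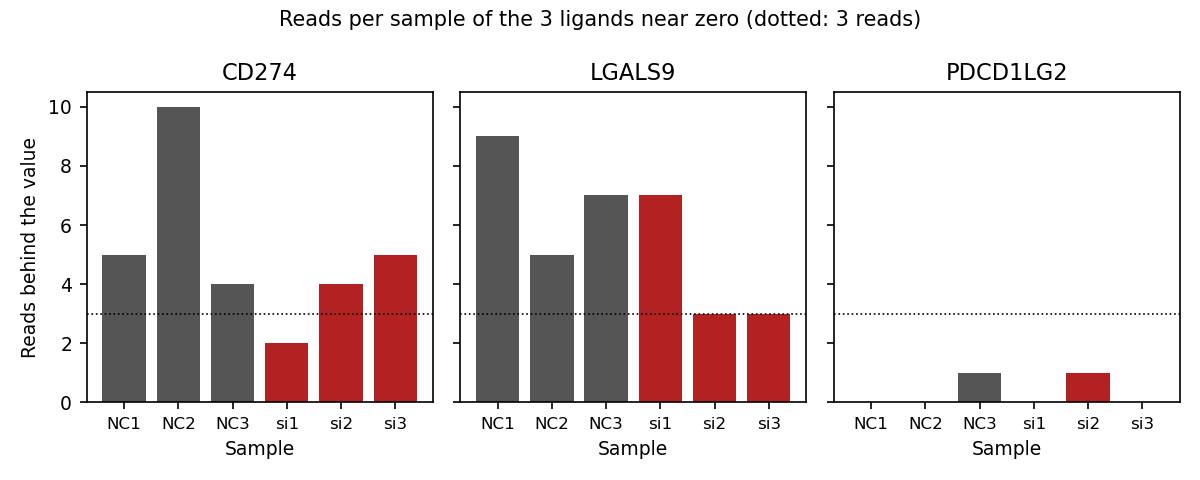
Reads behind the values of CD274, LGALS9 and PDCD1LG2 in each sample (grey bars, negative controls NC1 to NC3; red bars, CD73 siRNA si1 to si3; dotted line, 3 reads). No bar exceeds 10 reads, and the groups overlap for CD274 and LGALS9.

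CD276 (ENSG00000103855, chr15:73683966-73714518, forward strand), the gene of the checkpoint ligand B7-H3, was at 20.1, 16.4 and 24.4 RPKM after CD73 siRNA and at 26.2, 17.8 and 24.4 RPKM in the controls. The samples numbered 2 were the lowest of each group, and the groups overlapped almost entirely. The log2 difference was -0.16 (95% interval -0.58 to 0.27, limma p = 0.419, exact permutation p = 0.6), a range that still holds a decrease to 0.67 of the control. Within numbers it was -0.36, -0.11 and 0.00. Without siRNA sample 2 it was -0.018, without control 1 -0.05 and without control 3 -0.10, while without siRNA sample 3 it was -0.29 and without control 2 -0.32.

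CD47 (ENSG00000196776, chr3:108043094-108091862, reverse strand), which restrains engulfment by macrophages, was at 13.1, 11.8 and 10.8 RPKM after CD73 siRNA and at 14.3, 13.2 and 13.4 RPKM in the controls. The groups did not overlap, but siRNA sample 1 and control 2 were almost level. The log2 difference was -0.18 (95% interval -0.43 to 0.06, limma p = 0.121, exact permutation p = 0.1). With ICAM1 it made 2 of the 7 expressed members whose siRNA samples all lay below the controls, against 8.07% of all tested genes. The reads behind CD47 did not come out whole with the gene length used here, so its read numbers are approximate.

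PVR (ENSG00000073008, chr19:44643798-44663583, forward strand), the gene of CD155, had the smallest difference of the expressed members. It was at 20.8, 23.9 and 25.4 RPKM after CD73 siRNA and at 25.4, 23.5 and 26.3 RPKM in the controls, with overlapping groups. The log2 difference was -0.10 (95% interval -0.35 to 0.15, limma p = 0.376, exact permutation p = 0.4), and within numbers it was -0.28, 0.02 and -0.05. Without siRNA sample 1 it was -0.022, without control 3 -0.07 and without siRNA sample 3 -0.16. An antisense gene that spans all of PVR, AC243964.2, had 0.182 to 0.57 RPKM. CEACAM19, which overlaps 1306 bases of PVR on the same strand, had 0.252 to 0.571 RPKM.

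NECTIN2 (ENSG00000130202, chr19:44846175-44889228, forward strand), the gene of CD112, was at 21.1, 20.1 and 18.9 RPKM after CD73 siRNA and at 32.8, 21.9 and 19.5 RPKM in the controls. Control 1 alone stood well above the siRNA samples, and control 3 lay among them. The log2 difference was -0.25 (95% interval -0.67 to 0.16, limma p = 0.196, exact permutation p = 0.3), and within numbers it was -0.61, -0.11 and -0.04. Without control 1 it was -0.04, and without control 3 it was -0.40. The antisense gene AC011481.2, which overlaps it, had 0 to 0.605 RPKM.

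CD83 (ENSG00000112149, chr6:14117256-14136918, forward strand) had the next largest difference after ICAM1. It was at 8.41, 6.62 and 6.16 RPKM after CD73 siRNA and at 16.5, 8.27 and 12.7 RPKM in the controls. The groups overlapped only where siRNA sample 1 lay just above control 2. The means were 7.06 ± 1.19 and 12.5 ± 4.10 RPKM (SD, n = 3 each), or 56.6% of the control.

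On the log2 scale CD83 differed by -0.70 (SE 0.225, 95% interval -1.22 to -0.18), with limma p = 0.0141, adjusted p = 0.342 and exact permutation p = 0.2. It therefore missed the threshold without the replicate number in the model. Within numbers 1, 2 and 3 it was lower by -0.89, -0.28 and -0.94, and in the fit that blocked on replicate number it passed, with limma's p at 0.00186 (adjusted p = 0.113). Without control 2 the difference was -0.95 and passed the threshold with limma's p at 0.000606. Leaving out any other single sample gave -0.82 (without siRNA sample 1) to -0.49 (without control 1), and none of these passed. The other dendritic cell markers were LAMP3, at 1.71 to 2.13 RPKM after CD73 siRNA and 1.80 to 3.07 RPKM in the controls, HLA-DRA, with no more than 0.05 RPKM in any sample, and ITGAX, at no more than 0.027 RPKM. CD1A was not analysed here.

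**Figure D3:**
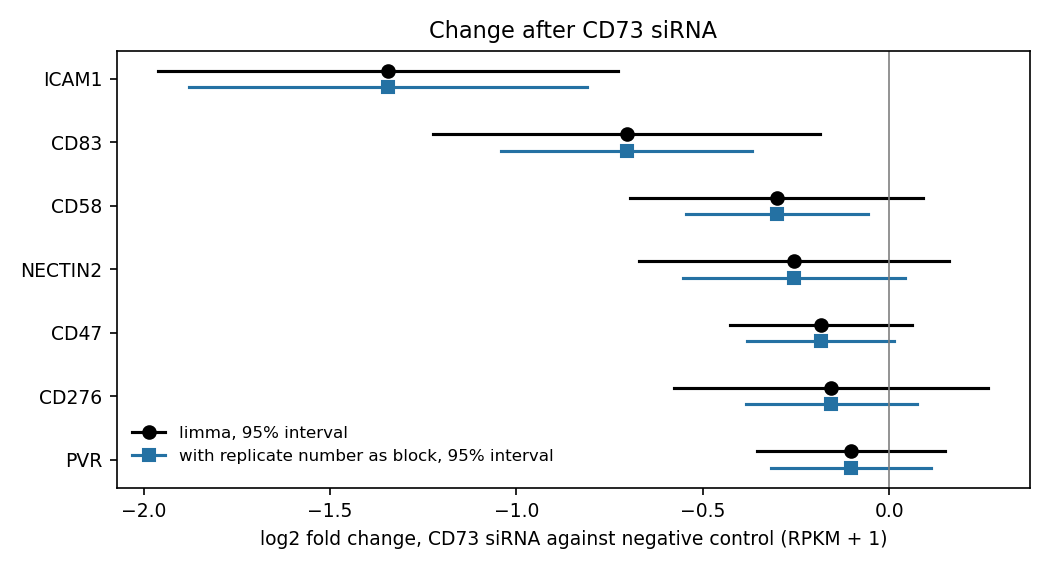
log2 fold change of each expressed ligand, CD73 siRNA against negative control, with its 95% interval from limma without (black circles) and with (blue squares) the replicate number as a block. ICAM1 and CD83 lie apart from 0 in both, at -1.34 and -0.70, the intervals of NECTIN2, CD47, CD276 and PVR reach 0 in both, and that of CD58 only without the block.

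All 7 expressed members had a lower mean after CD73 siRNA, as did 48.0% of all tested genes. Lower values within every replicate number were found in 5 of 7, ICAM1, CD58, CD83, CD47 and NECTIN2, against 24.5% of all tested genes. In the blocked fit ICAM1 and CD83 fell, 2 of 7 members against 3.3% of all tested genes. These members were chosen with results for the genes known, so the counts describe them and are not a test of the list.

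Samples numbered 1 differed most, in the members and in all genes. The members' median difference was -0.50 within number 1, -0.13 within number 2 and -0.28 within number 3, and 7, 6 and 6 of the 7 were lower. Over all tested genes the median size of the difference was 0.238, 0.101 and 0.153 log2 units in the same order, with 48.1%, 50.3% and 47.6% of genes lower. Control 2 was the lowest control in 6 of the 7 members, NECTIN2 being the exception, and in 30.0% of all tested genes. Its part in the members' differences was not tested beyond the values given without it.

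**Figure D4:**
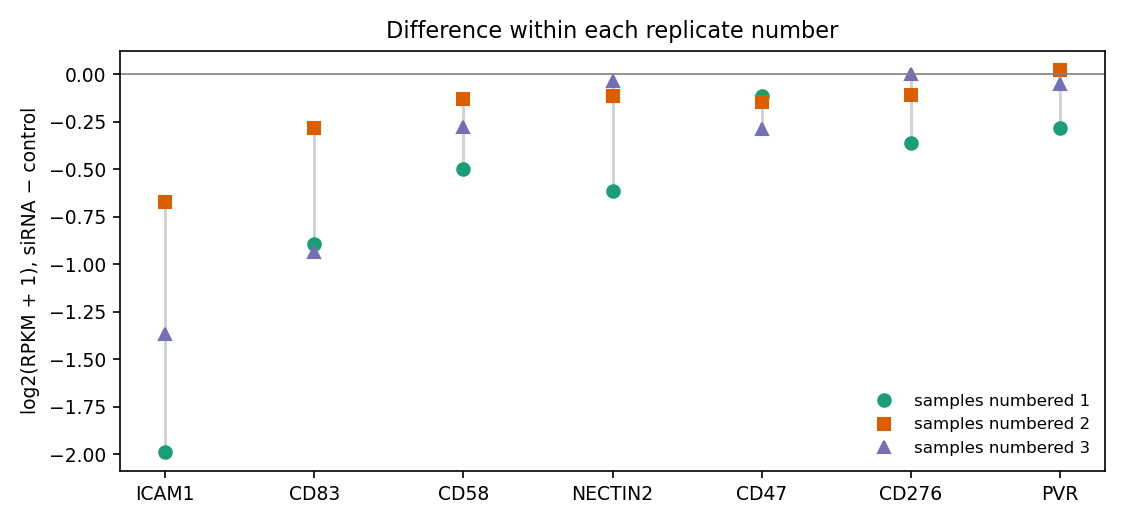
Difference of log2(RPKM + 1), CD73 siRNA minus negative control, within each replicate number (green circles, number 1; orange squares, number 2; purple triangles, number 3) for the 7 expressed ligands; grey lines join the lowest and highest. ICAM1 lies at -1.99, -0.67 and -1.37, and for PVR the difference within number 2 is slightly above 0.

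The order of the ligands also changed. In the mean of the controls ICAM1 was the highest, at 32.25 RPKM, a level above that of 95.4% of the 30735 genes, followed by PVR (25.1 RPKM), NECTIN2 (24.7 RPKM), CD276 (22.8 RPKM), CD47 (13.6 RPKM), CD83 (12.5 RPKM) and CD58 (5.39 RPKM). The ranges of ICAM1, PVR, NECTIN2 and CD276 each overlapped the next, as did those of CD47 and CD83. CD276 lay apart from CD47, and CD83 from CD58. In control 2 ICAM1 (19.8 RPKM) was below PVR (23.5 RPKM) and NECTIN2 (21.9 RPKM). After CD73 siRNA the means of PVR (23.4 RPKM), CD276 (20.3 RPKM) and NECTIN2 (20.1 RPKM) led, with overlapping ranges. CD47 (11.9 RPKM) and ICAM1 (11.75 RPKM), the 4th and 5th, overlapped as well. Both lay below NECTIN2 and above CD83 (7.06 RPKM) without overlap.

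The ratio of ICAM1 to another ligand in the same sample does not depend on the library total. ICAM1 stood at 0.432, 0.502 and 0.561 times PVR in CD73 siRNA samples 1 to 3 and at 1.51, 0.84 and 1.46 times PVR in the controls, without overlap (exact permutation p = 0.1). It stood at 2.42, 3.24 and 2.80 times CD58 against 6.84, 4.76 and 6.02 times, again without overlap (exact permutation p = 0.1). CD83 against PVR overlapped between groups (exact permutation p = 0.2), as did NECTIN2, CD276 and CD47 against PVR (exact permutation p of 0.7, 0.7 and 0.6). The ratios were chosen after the values had been seen and describe the same difference as above.

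Among 7393 genes with a mean of at least 5 RPKM, those whose log2 level followed ICAM1 most closely over the 6 samples were ATG16L1 (Pearson r = 0.994), TRIB1 (0.993), PSME3 (0.992), SLC35F2 (0.991) and CLP1 (0.989). ATG16L1 belongs to the autophagy machinery, TRIB1 is a pseudokinase, PSME3 is a proteasome activator and CLP1 takes part in RNA processing. The 6 points form 2 groups, so a difference between the groups alone raises the size of r, and 3.07% of these genes had an r of at least 0.9. Of the other ligands CD58 had r = 0.868, CD83 0.838, PVR 0.764, CD276 0.613, CD47 0.586 and NECTIN2 0.502.

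Of 17 other genes of leukocyte adhesion, including further ICAM, JAM and selectin family members, 14 were in the data and 6 were expressed. None rose or fell, with or without the replicate block, and limma's p was under 0.05 for 0 of them. Their median log2 difference was 0.03 against 0.01 over all tested genes. The highest were CD44, the hyaluronan receptor, at 98.6 ± 17.7 RPKM after CD73 siRNA and 112 ± 17.9 RPKM in the controls (SD, n = 3 each), JAM3, at 21.6 ± 3.62 and 22.3 ± 4.84 RPKM, and CD99, at 22.6 ± 1.66 and 20.3 ± 0.395 RPKM. The nearest relatives of ICAM1 were low. ICAM5 was at 1.89 to 3.28 RPKM, and ICAM2 and ICAM3 did not exceed 0.044 RPKM in any sample.

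Of 16 costimulatory and coinhibitory ligands, 14 were in the data and 6 were expressed. Again none rose or fell, and limma's p was under 0.05 for 0 of them. All 6 had a lower mean after CD73 siRNA, as did 48.0% of all tested genes, and their median log2 difference was -0.20. CD70, the ligand of CD27, was at 23.2, 34.8 and 25.8 RPKM against 37.4, 35.4 and 30.1 RPKM, a log2 difference of -0.30 (limma p = 0.0978, exact permutation p = 0.2). CD40 was at 8.36 ± 0.745 and 9.77 ± 1.38 RPKM, and the butyrophilin BTN2A1 at 9.32 ± 1.43 and 10.7 ± 1.52 RPKM (SD, n = 3 each).

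Of 15 further inhibitory ligands and phagocytosis genes, 13 were in the data and 11 were expressed. None rose or fell, limma's p was under 0.05 for 1 of them (LGALS3, lower, against 4.9% of all tested genes), and the median log2 difference was -0.03. LGALS1, the gene of galectin-1, was at 284 ± 4.45 RPKM after CD73 siRNA and 276 ± 6.63 RPKM in the controls. CALR, whose surface form is a signal for engulfment, was at 267 ± 59.4 and 222 ± 45.1 RPKM, and HMGB1 at 64.8 ± 7.70 and 64.2 ± 3.44 RPKM (SD, n = 3 each). With the replicate block CMTM6, which stabilises PD-L1, fell by 0.29 on the log2 scale and CD24 rose by 0.35 (limma adjusted p = 0.1249 and 0.1195), and without the block neither passed. These were 1 of 11 in each direction, where the blocked fit called 413 of 12527 tested genes lower and 535 higher.

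Of 20 genes that carry or restrain TNF and interferon-γ signals to targets such as ICAM1, all were in the data and 19 were expressed. The list holds both kinds, SOCS1, SOCS3, PTPN2 and NFKBIA among those that restrain, so its counts give no direction of signal. Of these 19, 5 fell and none rose, against 1.31% of all tested genes that fell. A lower mean was found in 17, against 48.0% of all tested genes. The median log2 difference was -0.25. The blocked fit called 7 of the 19 lower, against 3.3% of all tested genes, adding RELB and NFKB1, both NF-κB subunits. The list was chosen with earlier results of these data known and its direction is not independent evidence. Those that fell were NFKBIA, the inhibitor of NF-κB that NF-κB itself induces (-1.07), NFKB2, an NF-κB subunit (-0.88), IRF2, an interferon regulatory factor (-0.68), JAK1, the kinase of interferon receptors (-0.52), and IFNGR1, a chain of the interferon-γ receptor (-0.35).

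NFKBIA was at 19.2, 26.5 and 15.4 RPKM after CD73 siRNA and at 61.0, 34.8 and 37.2 RPKM in the controls (limma p = 0.00252, adjusted p = 0.303, exact permutation p = 0.1). JAK1 was at 50.2, 57.0 and 51.8 RPKM against 85.7, 68.8 and 75.5 RPKM (limma p = 0.00157, exact permutation p = 0.1). The groups overlapped in neither gene, and JAK1 passed the threshold whichever one sample was left out. Without siRNA sample 1 the differences of NFKBIA (-1.05), IRF2 (-0.60) and NFKB2 (-0.80) no longer passed it. NFKB2 also missed the threshold without siRNA sample 3 (-0.74), control 1 (-0.68) or control 2 (-0.90). IFNGR1 missed it without siRNA sample 1 (-0.33), siRNA sample 3 (-0.31), control 1 (-0.33), control 2 (-0.33) or control 3 (-0.39).

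JAK1 and STAT3 were among the most abundant of the 20. STAT3 was at 47.6 ± 11.1 RPKM after CD73 siRNA and 53.6 ± 8.38 RPKM in the controls (SD, n = 3 each) and did not pass the threshold (limma p = 0.367, exact permutation p = 0.5). Of the tested genes with GGAANTTCC before their start, as in ICAM1 and CD83, 2 of 107 fell, ICAM1 and NFKBIA, or 1.87%. Of the 8980 tested genes with a window and without these letters, 1.33% fell. Another 3 of the 107 rose, and 43.0% had a lower mean, beside 48.0%. The letters were searched after the values of ICAM1 had been seen, so its place among the 2 was fixed in advance. The shares are a description and no test of the letters.

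**Figure D5:**
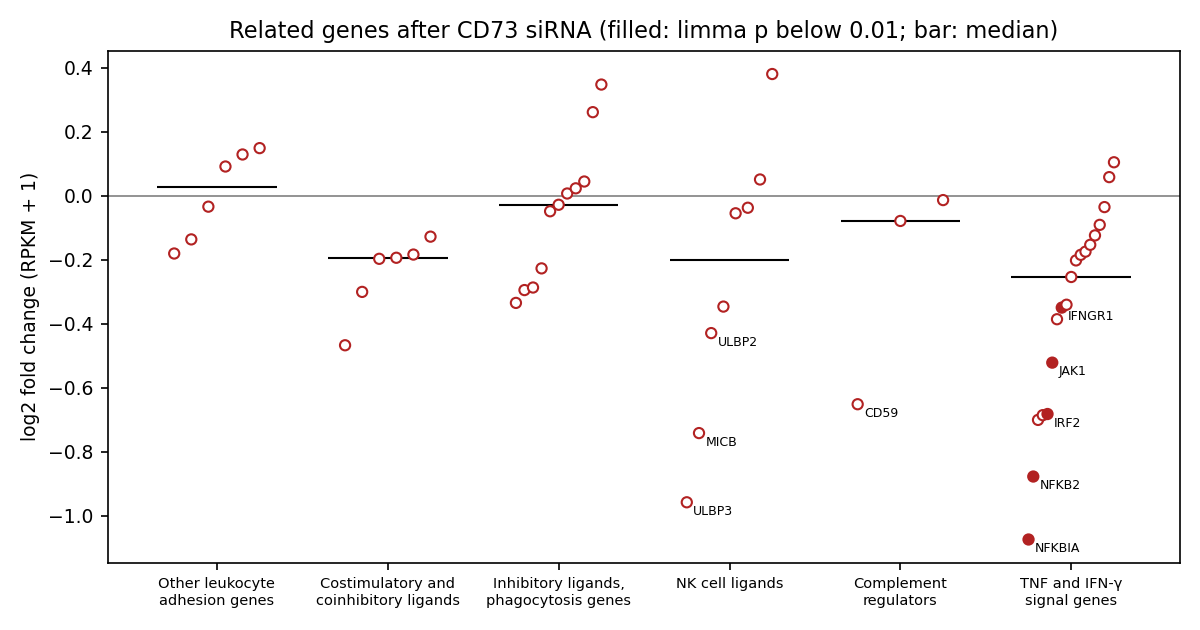
log2 fold change of each expressed gene of 6 groups related to the ligands, CD73 siRNA against negative control, with 1 point per gene, filled where limma's p was under 0.01, and a black bar at the group's median. In the TNF and interferon-γ group 5 genes are filled, all below 0, and in the other groups none.

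The receptors that bind these ligands on leukocytes were mostly near 0. Of 10, 7 were in the data and 2 passed the filter. PDCD1, the gene of PD-1, was at 1.24, 1.68 and 1.66 RPKM after CD73 siRNA and at 0.885, 1.34 and 0.977 RPKM in the controls (30 to 59 reads, limma p = 0.091, exact permutation p = 0.2). SIRPA, the receptor of CD47, was at 1.08 to 1.28 RPKM and 1.19 to 1.78 RPKM (limma p = 0.145, exact permutation p = 0.2), and ITGAM, a chain of Mac-1, at 0 to 0.308 RPKM. The median log2 difference of PDCD1 and SIRPA was 0.03.

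Leukocyte and endothelial markers were near 0 in every sample. The summed level of 5 leukocyte markers was 0.0310 to 0.0870 RPKM after CD73 siRNA and 0.0837 to 0.269 RPKM in the controls, with PTPRC at no more than 0.015 RPKM. Of 6 such markers CD3E was not analysed here. The 3 endothelial markers summed to 0.014 to 0.0611 RPKM and 0.0464 to 0.0856 RPKM, and the dendritic markers to 1.73 to 2.15 RPKM and 1.82 to 3.08 RPKM, nearly all LAMP3. The fibroblast markers summed to 9.01 to 16.3 RPKM and 10.6 to 19.2 RPKM, nearly all COL1A1.

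Of 5 ductal epithelial markers 4 were expressed, and 2 of these, KRT8 and KRT18, fell, against 1.31% of all tested genes. The 5 summed to 71.0 to 101 RPKM after CD73 siRNA and to 134 to 252 RPKM in the controls. KRT8, a keratin of simple epithelia, was at 45.4, 47.5 and 30.01 RPKM against 158, 72.0 and 83.6 RPKM and fell by 1.27 on the log2 scale (limma p = 0.00261, exact permutation p = 0.1). Its partner KRT18 fell by 0.68 (limma p = 0.00447, exact permutation p = 0.1). It no longer passed without siRNA sample 1 (-0.72), siRNA sample 3 (-0.56), control 1 (-0.51) or control 3 (-0.70). KRT19 was at 3.60 to 3.87 RPKM against 3.83 to 5.39 RPKM, EPCAM at 0.802 to 1.61 RPKM against 0.582 to 1.71 RPKM, and KRT7, a usual ductal keratin, at no more than 0.107 RPKM in any sample. The part of these markers in the result for ICAM1 was not tested.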

How the data were processed

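In each of the 6 tables the authors deposited, every gene has a normalized value, read here as RPKM since neither the labels nor the methods name the unit. The values times the merged exon length in GENCODE 29 were whole multiples of one step per sample, within 0.01 reads, in 94.9% to 95.0% of genes under 1000 reads, which also gave library totals and read numbers. The submitters' processing notes name bcl2fastq, Bowtie2 2.2.3, HTSeq 0.6.0 and hg38. Their roles, the annotation and the strand setting are not given in the sources used here, so reads of overlapping antisense genes cannot be told apart. Symbols came from a gene name table (30384 of 30735 identifiers matched).

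log2(RPKM + 1) was compared, for genes reaching 1 RPKM in 3 or more samples, with limma 3.58.1 (R 4.3.3, lmFit and eBayes with trend), Benjamini-Hochberg adjustment and, for single genes, exact two-sided permutation tests (scipy 1.17.1). The scripts were tested on simulated data. The pseudocount understates changes of low genes. Replicate numbers were used to pair the samples, though the labels do not say that samples of the same number were handled together. Deviations from the group means correlated at 0.197, 0.481 and 0.553 between samples of the same number (1, 2 and 3). Between samples of different numbers they correlated at -0.439 to -0.00637. These correlations share samples and are not independent of each other. Deviations cancel out within each group, so positive correlations at the same number force negative ones between different numbers. The numbers come from the sample titles. Members and lists were chosen with earlier results of these data known. The genes named are the 10 members, NT5E, the genes of each list with p under 0.01 and its 3 most abundant, and the 5 genes most like ICAM1. A gene this rule names and a further motif that was searched are not reported here. Relatives and overlapping genes of members, ULBP2, ULBP3, CMTM6, CD24, LGALS3, RELB and NFKB1 were named after their values had been seen. Alternatives were another pseudocount, other filters, each sample left out, the replicate block, no moderation and 3 other scalings.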

Additional observations from a re-analysis of the deposited data

How the results depend on the processing

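The number of genes with p under 0.01 was 392 (228 higher and 164 lower). With the replicate block it was 948 (535 higher and 413 lower), without moderation of the variances 216, and with one sample left out 116 (without siRNA sample 1) to 792 (without control 2), with 188 without control 1 and 258 without control 3. The ICAM1 difference kept its sign in every alternative and passed the threshold in all but the fit without moderation (-1.34, p = 0.0198 from the linear model, exact permutation p = 0.1). Leaving out one sample gave -1.65 to -1.18, and leaving out both samples numbered 2, added after the data were seen, -1.68. Among the genes named, the block brought CD83, MICB, CD59, ULBP2, ULBP3, CMTM6, CD24, RELB and NFKB1 past the threshold and removed no call. IFNGR1 missed the threshold with a pseudocount of 0.1, IFNGR1 and TRIB1 with every sample scaled to the same sum, and NFKB2 without a filter. Without moderation NT5E, NFKBIA, NFKB2, IRF2, IFNGR1, KRT8, KRT18, ATG16L1, TRIB1 and SLC35F2 missed it too, while JAK1 passed.

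Several genes near 0 changed sign when one sample was left out, with ranges of -0.19 to 0.11 for JAM3, -0.087 to 0.065 for HMGB1, -0.10 to 0.16 for MICA, -0.20 to 0.016 for CD46, -0.21 to 0.12 for CD55 and -0.32 to 0.022 for STAT3. HMGB1 was at -0.018 under median ratio scaling, CD55 at 0.015 when every sample was scaled to the same sum, and MICA at -0.10 without both samples numbered 2. The cause of these changes of sign was not tested. With a pseudocount of 0.1 the differences of CD274 and LGALS9 were -0.345 and -0.29, beside -0.059 and -0.043 with the pseudocount of 1. The larger pseudocount understates changes of genes this low. Depth limits CD274, LGALS9 and PDCD1LG2, which had at most 10 reads, and intervals of counting cover counting error only.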

Other observations

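Ligands that NK cells read through NKG2D and other receptors were 12 in number, of which 8 were expressed. None passed limma's p under 0.01 without the replicate block, 2 were under 0.05 with a lower level (4.9% of all tested genes were), and their median log2 difference was -0.20. With the block MICB, ULBP2 and ULBP3, all NKG2D ligands, passed it downward (adjusted p = 0.1186, adjusted p = 0.1195 and adjusted p = 0.1128, limma), 3 of 8 beside 3.3% of all tested genes.

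MICB was at 29.8, 28.6 and 37.2 RPKM after CD73 siRNA and at 75.2, 35.1 and 58.1 RPKM in the controls, with control 2 just below siRNA sample 3. Without control 2 its log2 difference was -1.04, past the threshold, and with it -0.74. Leaving out any other single sample gave -0.85 (without siRNA sample 3) to -0.50 (without control 1), and none of these passed. ULBP3 was at 1.45, 1.42 and 2.04 RPKM against 5.62, 2.02 and 5.60 RPKM, from 22 to 89 reads, and ULBP2 at 1.20, 0.989 and 1.89 RPKM against 1.76, 1.86 and 2.91 RPKM. The related MICA was at 6.48 ± 0.235 and 6.30 ± 1.29 RPKM, and BAG6, a ligand of NKp30, at 66.3 ± 7.07 and 68.8 ± 4.52 RPKM (SD, n = 3 each).

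Of 5 complement regulators 3 were expressed. Without the replicate block none passed limma's p under 0.01, and 1 was under 0.05 with a lower level (4.9% of all tested genes were). The median log2 difference was -0.08. CD59, which blocks the membrane attack complex, was at 26.3, 47.2 and 30.3 RPKM after CD73 siRNA and at 55.5, 60.2 and 45.1 RPKM in the controls, a log2 difference of -0.65 (limma p = 0.0152, exact permutation p = 0.2) that passed the threshold with the replicate block, 1 of 3 beside 3.3% of all tested genes. Without siRNA sample 2, the only one that overlapped the controls, it was -0.89 and passed too. Leaving out any other single sample gave -0.77 (without control 3) to -0.48 (without siRNA sample 1), and none of these passed. CD46 was at 15.0 ± 1.75 and 15.9 ± 2.30 RPKM, and CD55 at 3.43 ± 0.828 and 3.49 ± 0.987 RPKM (SD, n = 3 each).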
